A study of Mus musculus with 46 samples.

Results

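Liver cells keep their identity through a small set of transcription factors, and 9 of their genes are described here across the livers of the series, with the islets beside them. The genes were chosen by name, as the rows with the symbols Hnf4a, Nr1i3, Nr5a2, Foxa1, Foxa2, Foxa3, Cebpa, Onecut1 and Prox1, from 55487 genes listed in each file. The rule uses names and no measured values, but the genes were chosen with earlier results of these data known. Each symbol stood in 1 row. All 9 genes passed the filter on low counts in the livers, and 7 passed it in each of the islet experiments.

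In the hepatocyte these factors bind each other's genes as well as the genes of plasma proteins, lipid transport, bile acid synthesis and drug metabolism. Hnf4a, Nr1i3 and Nr5a2 encode nuclear receptors, the Foxa genes encode forkhead factors that open compacted chromatin, Cebpa encodes a leucine zipper factor, and Onecut1 and Prox1 encode homeodomain factors of early liver development. Several of them also act in the pancreas: Foxa2 and Hnf4a have known roles in beta cells.

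The study measured RNA in mouse tissues with damaged mitochondria. Its livers were labelled control (6 libraries), Mfn DKO (4) or Tfam KO (3), and the sample descriptions carry the letters AAV. Mfn1 and Mfn2 encode the mitofusins that fuse mitochondria, and Tfam encodes the factor that packages and transcribes mitochondrial DNA. Islets, the hormone-secreting cell clusters of the pancreas, were labelled Tfam control (5 female, 3 male), Tfam KO (4 female, 2 male), Clec control (4 on the diet RFD, 6 on the diet HFD) or Clec KO (4 on RFD, 5 on HFD). Clec16a encodes a regulator of mitophagy. The vector, the promoter, the enzyme that removed the genes, the ages and the strain are not given in the sources used here, and neither is the sex of the livers. The labels call the samples biological replicates.

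Total counts ran from 41961114 to 56894510 per liver, from 55223041 to 83342809 per library of the Tfam islets and from 16235173 to 55810879 per library of the Clec16a islets. Levels within an experiment are given in CPM, the counts relative to library size, with library sizes scaled by TMM, a method that sets most genes equal between libraries. The targeted genes were lower as labelled: Mfn1 held 80.8 ± 7.58 CPM (SD) in 6 control and 20.1 ± 4.30 in 4 Mfn DKO livers, and Mfn2 157 ± 28.4 and 38.1 ± 5.35. Tfam held 58.9 ± 4.02 CPM in control and 14.7 ± 1.42 in 3 Tfam KO livers, and its log2 fold change in Tfam KO islets was -1.21. Clec16a counts did not show the label: the log2 fold change was 0.13 on RFD and 0.08 on HFD (adjusted p 0.612 and 0.740), so those islets are called by their label throughout. Of the 12 hepatocyte markers, all were detected in each liver group, and 7 of 9 beta cell markers stayed under 0.1 CPM in every control liver. Xist was high in 3 control, 2 Mfn DKO and 2 Tfam KO livers, and adding its level to the fit changed the call of no gene among the 9 in the 3 liver comparisons.

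The Tfam KO livers differed among themselves, which bears on every value below. Replicate 2 stood apart: the summed hepatocyte markers reached 30043 CPM there, against 71264 and 125179 in replicates 1 and 3 and 115862 to 164553 in the controls. The summed markers of bile duct cells were 170 in replicate 2, against 41.4 and 87.7 in the other Tfam KO livers and 52.0 to 97.4 in the controls. The Mfn DKO livers held hepatocyte sums of 93553 to 119535 and duct sums of 77.9 to 126. Their summed stellate cell markers ran from 371 to 467 CPM, against 279 to 360 in the controls. Of 10 such genes 3 were called higher, beside 5.23% of all genes. Summed markers of Kupffer cells or macrophages ran from 738 to 1614 CPM in Mfn DKO, 349 to 1051 in Tfam KO and 561 to 1056 in control livers. The part of these markers in the results was not tested. In whole tissue, fewer hepatocytes and less RNA of a gene per hepatocyte cannot be told apart.

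Fold changes and adjusted p came from edgeR's quasi-likelihood test over all 17024 genes tested in the livers, with Benjamini-Hochberg adjustment. Genes with an adjusted p up to 0.05 are termed called. Both knockouts were compared with the same 6 control livers, so their values are set side by side and are not independent.

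The bases before the start sites are shown first for 4 genes whose RNA was called lower in Tfam KO livers, since all 9 encode factors that could bind each other's promoters. They are the 250 bases upstream of a RefSeq start site (GRCm38.p6, read 5′ to 3′ on the gene's strand), and capitals mark matches to any of 7 motifs searched on both strands. Foxa1 lies on the minus strand at chr12:57546112-57546361, inside the GENCODE gene, which reaches to 57546916. The Foxa2 window is that of its outermost start, on the minus strand at chr2:148046970-148047219. Nr1i3 lies on the plus strand at chr1:171213720-171213969, and Cebpa on the plus strand at chr7:35119043-35119292.
Foxa1: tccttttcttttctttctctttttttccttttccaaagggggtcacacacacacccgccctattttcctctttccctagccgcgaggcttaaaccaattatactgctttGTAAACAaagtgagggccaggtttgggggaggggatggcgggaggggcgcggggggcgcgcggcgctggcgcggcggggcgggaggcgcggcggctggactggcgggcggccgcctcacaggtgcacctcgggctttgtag
Foxa2: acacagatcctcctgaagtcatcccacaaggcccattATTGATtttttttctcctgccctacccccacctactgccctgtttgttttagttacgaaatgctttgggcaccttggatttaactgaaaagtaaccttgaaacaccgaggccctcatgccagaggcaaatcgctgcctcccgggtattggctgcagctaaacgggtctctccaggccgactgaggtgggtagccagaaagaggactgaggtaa
Nr1i3: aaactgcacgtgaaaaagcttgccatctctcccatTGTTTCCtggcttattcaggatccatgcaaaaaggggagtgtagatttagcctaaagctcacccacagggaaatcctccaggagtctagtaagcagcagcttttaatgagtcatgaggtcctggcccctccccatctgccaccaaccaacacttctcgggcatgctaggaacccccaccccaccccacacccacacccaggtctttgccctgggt
Cebpa: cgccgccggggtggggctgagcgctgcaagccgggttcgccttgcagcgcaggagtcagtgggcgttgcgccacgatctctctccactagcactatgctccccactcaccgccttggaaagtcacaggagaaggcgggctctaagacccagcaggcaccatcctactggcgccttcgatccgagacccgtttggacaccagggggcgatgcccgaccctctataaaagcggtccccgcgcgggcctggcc
The forkhead motif TGTTTNC stood 141 bases before the Foxa1 start, on the opposite strand, and 215 bases before the Nr1i3 start. The ONECUT motif ATTGAT stood 213 bases before the Foxa2 start. The Cebpa window held none of the 7 motifs, which says only that these letters are not in it.

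All 9 genes had an entry, with 14 start sites among them. Of the 14 windows, 4 held the forkhead motif, against 17.8% of the 32851 promoters in the table. Besides Foxa1 and Nr1i3, these were the upstream start of Hnf4a and a start of Prox1. The ONECUT motif stood in 2 windows (Foxa2 and the same Hnf4a start), against 6.72% of all promoters. The C/EBP motif TTGCNNAA (9.56% of promoters) and the C/EBP-ATF motif TGATGNAA (3.45%) each stood in 1 window, both in the same Nr5a2 promoter, and the HNF1 motif (0.371%) stood in the other Nr5a2 promoter. The HNF4 motif CAAAGTNCA (1.19%) and the NR5A motif CAAGGTCA (1.33%) stood in none. Matches to each motif were counted on their own, also where motifs share bases. Gene counts cannot tell the start sites of a gene apart.

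In control livers the 9 genes spanned a wide range of levels. Per length, in the authors' TPM (transcript abundance per length, scaled to a fixed total; mean ± SD over 6 livers), Cebpa came first at 523 ± 37.4 and Hnf4a second at 394 ± 58.5. Their ranges did not overlap each other or those of the remaining genes. Foxa3 followed at 69.7 ± 19.95, then Foxa2 at 39.7 ± 10.9, Prox1 at 34.7 ± 8.42 and Nr1i3 at 32.9 ± 8.22. Nr5a2 reached 22.7 ± 2.83, Foxa1 14.8 ± 3.10 and Onecut1 4.89 ± 4.5. From Foxa3 down, each gene's range overlapped that of its neighbour, so the order among neighbours does not exceed their spread. By mean TPM, Cebpa stood at rank 223 and Hnf4a at rank 304 of all genes, among 12330 with a mean TPM of 1 or more, and Onecut1 stood at rank 7987.

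Loss of Tfam went with lower RNA of most of these factors in liver. In Tfam KO livers 6 of the 9 were called lower (Foxa2, Foxa1, Prox1, Nr1i3, Nr5a2 and Cebpa) and none higher. Of all genes tested, 29.3% were called there, 11.3% lower and 18.1% higher. The median log2 fold change of the 9 genes was -0.86, against 0.03 over all genes. In Mfn DKO livers 2 of the 9 were called lower, Foxa1 and Foxa2, against 9.87% of all genes called, 4.64% lower and 5.23% higher. The median of the 9 was -0.28 there, against 0.02. Leaving out Tfam KO replicate 2 left 3 of 9 called lower (Foxa1, Foxa2 and Cebpa), where 14.5% of all genes were called, 5.95% lower. On library totals without TMM, 4 of the 9 were called lower in Tfam KO livers, as were 905 of 17024 genes. A fit of Tfam KO and control livers alone called 3 of the 9 lower, as it did 1146 of 16449 genes. The TMM factors ran from 0.862 to 0.929 in controls, 0.995 to 1.04 in Mfn DKO and 1.04 to 1.43 in Tfam KO livers. A higher factor lowers the CPM. For Nr1i3, Foxa1 and Foxa2, every knockout liver of both kinds lay below every control liver in TMM-scaled CPM. This depended on the scaling. On library totals Foxa2 overlapped, with 28.6 CPM in Mfn DKO replicate 3 and 27.0 in control replicate 4. In TPM each of these genes overlapped. Nr1i3 held 25.7 in Tfam KO replicate 3 and 24.5 in control replicate 2. Foxa1 held 13.3 in Tfam KO replicate 2 and 12.6 in control replicate 3. Foxa2 held 30.6 in Tfam KO replicate 2 and 27.5 in control replicate 4. In TMM-scaled CPM, 3 of the 9 genes had every Mfn DKO liver below every control (10.3% of all genes). In Tfam KO livers 4 of the 9 did (10.2%). None of the 9 lay wholly above the controls, as 8.95% and 10.7% of all genes did.

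**Figure D1:**
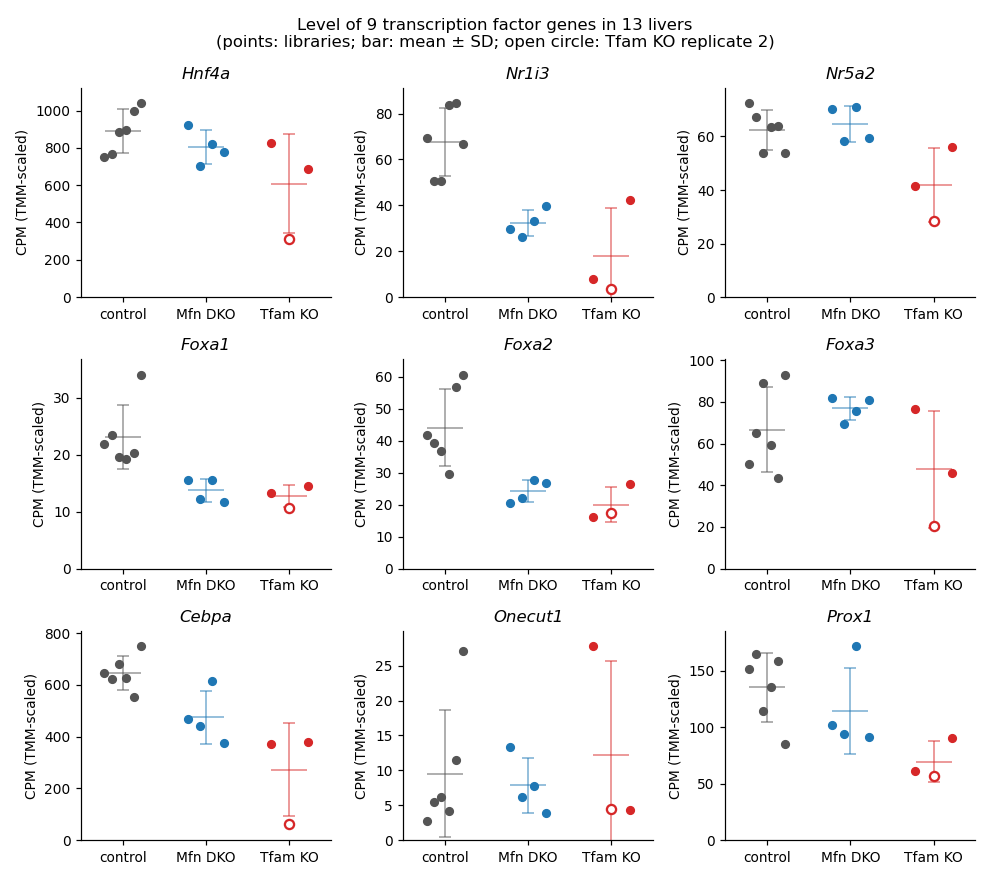
CPM of each gene (vertical axes from 0) in the 13 livers, 1 point per library, with the mean and SD of the 6 control, 4 Mfn DKO and 3 Tfam KO livers; the open circle is Tfam KO replicate 2. In this TMM-scaled CPM, all knockout livers lie below all controls for Nr1i3, Foxa1 and Foxa2. Hnf4a, Nr5a2, Foxa3, Onecut1 and Prox1 overlap the controls in both knockouts, and Cebpa in Mfn DKO only.

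Hnf4a, the nuclear receptor at the centre of the hepatocyte network, was called in neither knockout. Its CPM ran from 748 to 1039 in controls (median 890), was 921, 702, 822 and 779 in the Mfn DKO livers, and was 825, 312 and 688 in the Tfam KO livers. All groups overlapped. Mfn DKO replicate 2 and Tfam KO replicate 3 lay below all controls, and Tfam KO replicate 2 alone lay far below the rest. Its log2 fold change was -0.14 (SE 0.23, adjusted p 0.714) in Mfn DKO and -0.55 (SE 0.25, adjusted p 0.118) in Tfam KO, neither of them called. Without replicate 2 the Tfam KO value was -0.23 (adjusted p 0.364).

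Nr1i3, the receptor CAR that switches on drug-metabolizing enzymes, had the largest fold change of the 9. Control livers held 50.6 to 84.5 CPM (median 67.9). Mfn DKO livers held 29.7, 26.4, 33.4 and 39.5 CPM, and Tfam KO livers held 8.04, 3.73 and 42.1 CPM. In these TMM-scaled values every knockout liver lay below every control, and Tfam KO replicate 3 lay close to the Mfn DKO livers. In Tfam KO the log2 fold change was -1.92 (SE 0.57, adjusted p 0.0253). In Mfn DKO it was -1.07 (SE 0.49, adjusted p 0.178) and not called, although in a fit of those 2 groups alone the adjusted p was 0.00156. The Tfam KO call depended on the libraries: the value was -1.43 (adjusted p 0.0565) without replicate 2, -1.56 (0.0948) without replicate 1 and -3.54 (1.6e-05) without replicate 3. It was -1.93 (0.063) in a fit of Tfam KO and control livers alone. Nr1i3 shares part of its span (chr1:171213970-171220701, plus strand) with Tomm40l on the other strand, which held 6.55 to 14.7 CPM in the livers, and whether the counting used strand is not given in the sources used here.

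Nr5a2, the receptor LRH-1 of bile acid and cholesterol genes, differed between the knockouts in its values. Its CPM ran from 53.7 to 72.4 in controls (median 63.7), was 70.3, 58.4, 70.9 and 59.4 in Mfn DKO and 41.5, 28.3 and 56.1 in Tfam KO. The Mfn DKO livers lay within the controls, and 2 of 3 Tfam KO livers lay below all of them. Nr5a2 had a log2 fold change of 0.05 (SE 0.16, adjusted p 0.867) in Mfn DKO and -0.58 (SE 0.18, adjusted p 0.0314) in Tfam KO. The Tfam KO call was lost without replicate 1 (-0.57, adjusted p 0.0869) or replicate 2 (-0.36, adjusted p 0.140), and on library totals without TMM (-0.20, adjusted p 0.26). It was also lost without control replicate 1 (adjusted p 0.0559) or 2 (0.0527), and in a fit of the compared groups alone (0.0649).

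Of the forkhead genes, Foxa1 and Foxa2 fell in both knockouts and Foxa3 was called in neither. Foxa1 ran from 19.3 to 34.0 CPM in controls (median 21.1), and was 15.5, 12.3, 15.5 and 11.6 in Mfn DKO and 13.2, 10.6 and 14.4 in Tfam KO. In these TMM-scaled values the knockout livers were alike and all lay below the lowest control. The log2 fold change of Foxa1 was -0.75 (SE 0.17, adjusted p 0.0183) in Mfn DKO and -0.86 (SE 0.19, adjusted p 0.00673) in Tfam KO. In Tfam KO the call held whichever single liver was left out, with values from -0.98 to -0.73, and on library totals (-0.45, adjusted p 0.0455), but in Mfn DKO the adjusted p was 0.0633 without Mfn DKO replicate 2 and 0.0591 without replicate 4.

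Foxa2 showed the same order. Its CPM ran from 29.6 to 60.6 in controls (median 40.5), and was 20.6, 22.1, 27.5 and 26.7 in Mfn DKO and 16.2, 17.4 and 26.3 in Tfam KO. No knockout liver reached the lowest control in these TMM-scaled values, which did not hold on library totals or in TPM. Foxa2 had a log2 fold change of -0.86 (SE 0.21, adjusted p 0.0235) in Mfn DKO and -1.14 (SE 0.24, adjusted p 0.00470) in Tfam KO. In Tfam KO it ran from -1.41 to -1.01 over the single livers left out, with the call kept each time, and was -0.74 (adjusted p 0.0149) on library totals. In Mfn DKO the adjusted p was 0.0827 without Mfn DKO replicate 1 and 0.0722 without replicate 2.

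Foxa3, by mean TPM the most abundant of the forkhead genes in liver, ran from 43.5 to 93.0 CPM in controls (median 62.2). It was 81.7, 69.4, 75.8 and 80.8 in Mfn DKO and 76.5, 20.5 and 45.7 in Tfam KO. In control replicate 5 Foxa2 stood higher than Foxa3, at 54.3 against 48.6 TPM. The Mfn DKO livers lay in the upper part of the control range, and the Tfam KO livers were spread from below to within it. Neither log2 fold change was called, 0.20 (SE 0.30, adjusted p 0.685) in Mfn DKO and -0.49 (SE 0.34, adjusted p 0.289) in Tfam KO.

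Per length, the makeup of the forkhead pool differed with these changes. Foxa3 made up 55.7 ± 8.93% (SD) of the summed TPM of the Foxa genes in 6 control livers and 72.5 ± 2.26% in 4 Mfn DKO livers. The ranges, 41.6 to 67.3% and 69.5 to 75.0%, did not overlap. Foxa2 made up 32.3 ± 8.18% in controls and 19.6 ± 2.39% in Mfn DKO, and Foxa1 12.0 ± 1.55% and 7.93 ± 1.09%. The Tfam KO livers were spread, with 48.9 to 77.7% of Foxa3. The summed TPM itself was 124 ± 24.7 in controls, 137 ± 8.87 in Mfn DKO and 113 ± 34.2 in Tfam KO. These shares are a description, since the genes were set against each other after their fold changes were known.

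**Figure D2:**
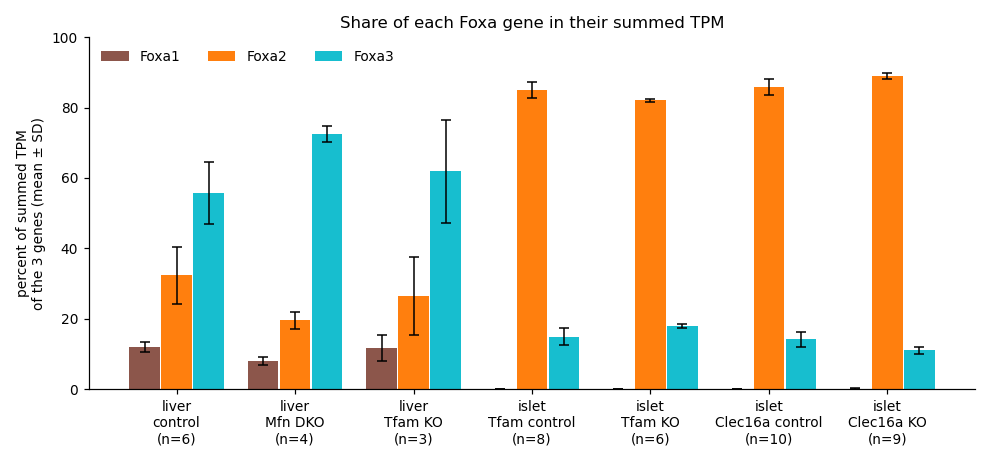
Share of Foxa1, Foxa2 and Foxa3 in their summed TPM (vertical axis, percent, mean ± SD, n below each group) in 3 liver and 4 islet groups. Foxa3 has the largest mean share in every liver group, at 55.7% in controls, while Foxa2 has a mean share above 80% in every islet group.

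Cebpa, which holds hepatocytes in a mature, non-dividing state, fell in Tfam KO livers. Its CPM ran from 553 to 749 in controls (median 637), and was 467, 442, 614 and 375 in Mfn DKO and 372, 63.6 and 379 in Tfam KO. All Tfam KO livers lay below all controls, and replicate 2 lay far below the others. The log2 fold change was -1.25 (SE 0.41, adjusted p 0.0385) in Tfam KO, and -0.78 (SE 0.18, adjusted p 0.0148) without replicate 2. The call was lost when any of control replicates 1, 2, 3, 4 or 6 was left out, with adjusted p from 0.0541 to 0.0627, and in a fit of the compared groups alone (0.0789). In Mfn DKO the value was -0.45 (SE 0.36, adjusted p 0.444), with 3 of 4 livers below all controls, and a fit of those 2 groups alone gave an adjusted p of 0.0275. Cebpa (chr7:35119293-35121928, plus strand) overlaps the antisense gene Gm45091, which held at most 1.46 CPM.

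Prox1, a homeodomain factor and corepressor of bile acid genes, fell in Tfam KO livers as well. Its CPM ran from 85.5 to 165 in controls (median 144), was 102, 93.7, 172 and 91.0 in Mfn DKO and was 60.9, 57.3 and 90.3 in Tfam KO. The lowest control, replicate 6, lay below the highest Tfam KO liver, so the groups overlapped there. Prox1 had a log2 fold change of -0.96 (SE 0.26, adjusted p 0.0165) in Tfam KO and -0.24 (SE 0.23, adjusted p 0.520) in Mfn DKO. The Tfam KO call was lost without Tfam KO replicate 1 (adjusted p 0.0678) or 2 (0.0772), and on library totals (-0.57, adjusted p 0.0736). Prox1 (chr1:190118035-190170714, minus strand) overlaps Prox1os on the other strand, at 2.08 to 10.6 CPM.

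Onecut1, or HNF6, which acts in bile duct formation and in the daily rhythm of liver metabolism, was the least abundant and the most variable. Its CPM was 2.76, 5.46, 6.14, 4.15, 11.4 and 27.1 in the controls, 13.3, 6.24, 7.78 and 3.96 in Mfn DKO and 27.8, 4.48 and 4.29 in Tfam KO. A control and a Tfam KO liver stood far above the rest, and the groups overlapped throughout. The log2 fold changes were -0.28 (SE 0.68, adjusted p 0.823) in Mfn DKO and 0.36 (SE 0.73, adjusted p 0.742) in Tfam KO. Neither was called, and both changed sign when the highest control or the highest Tfam KO liver, respectively, was left out.

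**Figure D3:**
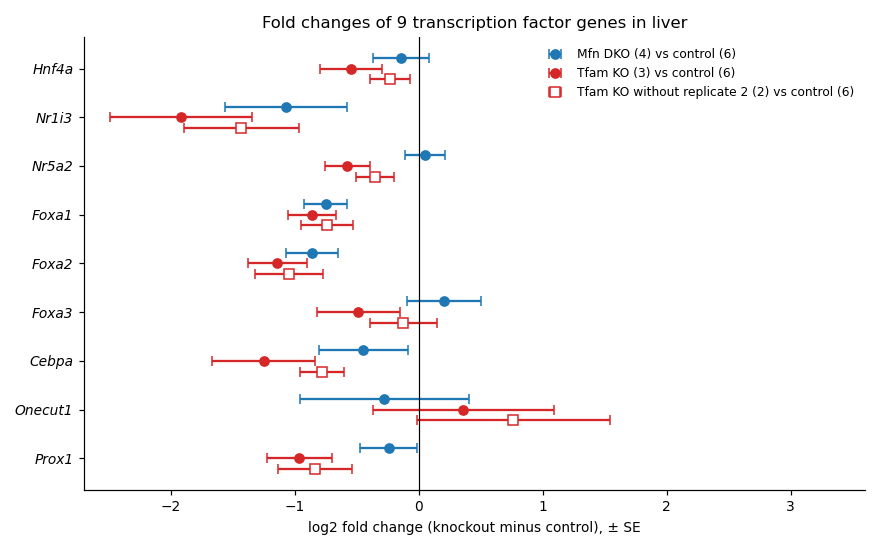
log2 fold change (horizontal axis, knockout minus control, ± SE) of each gene in Mfn DKO livers, in all 3 Tfam KO livers and in Tfam KO livers without replicate 2. Foxa1 and Foxa2 lie between -1.14 and -0.74 in all 3. When replicate 2 is left out, the Tfam KO values of all genes but Onecut1 move toward 0.

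The knockouts were also compared with each other, since a call in only 1 of them does not show a difference. None of the 9 was called between Tfam KO and Mfn DKO livers, where 0.294% of all genes were called, 0.188% lower and 0.106% higher. At an unadjusted p under 0.05, 2 were lower in Tfam KO: Nr5a2 (log2 difference -0.63, SE 0.19, p 0.00655, adjusted p 0.118) and Prox1 (-0.72, SE 0.27, p 0.0207, adjusted p 0.171). These were also the 2 genes whose groups did not overlap (5.1% of all genes lay wholly lower and 5.72% wholly higher). Cebpa gave -0.80 (SE 0.43, adjusted p 0.306) and Nr1i3 -0.85 (SE 0.58, adjusted p 0.412). Foxa1 and Foxa2 gave -0.11 (SE 0.20, adjusted p 0.778) and -0.28 (SE 0.24, adjusted p 0.528). The comparison turned on Tfam KO replicate 3: without it 4204 genes were called in place of 50, and Nr1i3, Nr5a2 and Prox1 were among them, at -2.46, -0.89 and -0.96 (adjusted p 0.000751, 0.00529 and 0.0368).

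Beyond the 9, 44 other transcription factors of the liver were counted, a list chosen with earlier results of these data known. Of these, 17 were called lower in Tfam KO livers and 1 higher, where 11.3% and 18.1% of all genes were, with a median log2 fold change of -0.43 against 0.03 over all genes. Creb3l3, a membrane-bound factor of triglyceride metabolism, fell from 387 ± 30.8 to 192 ± 11.6 CPM (adjusted p 0.00032), Nr2f2 from 40.2 ± 6.45 to 21.0 ± 3.83 (adjusted p 0.00193) and Nfix from 119 ± 20.5 to 61.4 ± 22.4 (adjusted p 0.00967). Atf5, a factor of the mitochondrial stress response, rose from 163 ± 74.9 to 437 ± 151 CPM (adjusted p 0.00745). In Mfn DKO livers Atf5 rose to 763 ± 56.6 CPM (adjusted p 0.00123), Creb3l3 fell to 231 ± 11.04 (adjusted p 0.00149), and no other gene of that list was called. Without Tfam KO replicate 2, 7 of the 44 were called lower and 1 higher, with 5.95% of all genes called lower. Of 16 cofactors of nuclear receptors, 1 was called higher and 1 lower in Mfn DKO livers, and 2 higher and none lower in Tfam KO livers. In Mfn DKO livers 5.23% of all genes were called higher and 4.64% lower. Ppargc1a (PGC-1alpha, which drives mitochondrial biogenesis) was called higher in both, at log2 fold changes of 0.66 in Mfn DKO and 0.63 in Tfam KO. Hdac3, a histone deacetylase, was lower in Mfn DKO (-0.44), and Prmt1, an arginine methyltransferase, was higher in Tfam KO (0.98).

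Genes known as targets of these factors were counted in Tfam KO livers beside the 11.3% of all genes called lower and 18.1% called higher. The lists were taken from general knowledge, share genes such as Apoa1, and hold hepatocyte markers. They were chosen with earlier results of these data known, so their counts are a description. Of 22 Hnf4a targets, 6 were called lower and none higher (median log2 fold change -1.24), led by Ttr (transthyretin) at -1.35 and Apoa1 at -1.63. Of 12 Cebpa targets 3 were called lower (median -0.76), among them Gys2, liver glycogen synthase, at -1.87. Of 11 Nr5a2 targets tested 5 were called lower (median -1.06), among them Abcg5 and Abcg8, which export sterols into bile, at -1.06 and -1.26. Of 11 Foxa targets tested 3 were called lower and 2 higher, and none of 6 Onecut1 and Prox1 targets was called.

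Of 24 Nr1i3 targets, 4 were called higher and 4 lower in Tfam KO livers (median -0.77), beside 18.1% and 11.3% of all genes. The higher ones were Cyp2b10, the classical CAR target, from 0.9 ± 0.7 to 17.9 ± 18.0 CPM, and Gstm3, Gsta1 and Abcc4. The CPM of Abcc4 rose from 4.2 ± 4.0 to 95.5 ± 80.2. In Mfn DKO livers Gstm3, Gsta1 and Abcc4 were called higher and Cyp2a5 lower, beside 5.23% and 4.64% of all genes. Among the Foxa targets, Igfbp1 was called higher in both knockouts (3.19 in Mfn DKO, 3.90 in Tfam KO). Afp, the fetal liver protein, ranged from 4.45 to 10779 CPM over the 3 Tfam KO livers, against 1.07 to 2.81 in the controls.

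Without Tfam KO replicate 2 the target lists kept lower medians, at -0.73 for Hnf4a, -0.42 for Cebpa, -0.63 for Nr5a2 and -0.32 for Nr1i3, against 0.03 over all genes. The numbers called lower were then 9, 3, 4 and 1, and the same 4 Nr1i3 targets were called higher. Of all genes, 14.5% were called in that fit, 5.95% lower. Of 12 hepatocyte markers 5 were called lower with all Tfam KO livers, beside 11.3% of all genes. Without replicate 2, 7 were called lower, beside 5.95%. In Mfn DKO livers none of the 12 hepatocyte markers, 22 Hnf4a targets or 11 Nr5a2 targets was called, with medians of -0.57, -0.69 and -0.26. Of 11 Foxa targets tested 2 were called higher there, and of 12 Cebpa targets 1, with none lower (medians -0.04 and -0.15). Of all genes, 4.64% were called lower and 5.23% higher in those livers, so lists this short would hold few calls at these shares.

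For each gene of the 9 other than Hnf4a, the 3 genes whose log2 CPM followed it most closely over the 13 livers were sought among 9857 genes with a mean of at least 5 CPM. The closest to Foxa1 were Dcaf8, Edc3 and Cish (Pearson r 0.95, 0.95 and 0.94), and to Foxa2 Cish, Tcta and Trp53inp2 (0.93, 0.93 and 0.92). Cish, a feedback inhibitor of cytokine signalling, thus stood in both sets. Cebpa was closest to Agmat, Azgp1 and Akr1c14 (each 0.99), Nr1i3 to Nxpe2, Eif4ebp2 and Slc47a1 (each 0.98), and Nr5a2 to F830016B08Rik, Ppara and Dpyd (0.98, 0.97 and 0.97). Prox1 was closest to Hjurp, Tnrc18 and Mmab (0.91, 0.90 and 0.90), Foxa3 to Hacd2, Traf2 and Cmtm6 (0.89, 0.88 and 0.88, but 0.67, 0.73 and 0.60 without Tfam KO replicate 2) and Onecut1 to Mcrip2, Phf8 and Larp4 (0.87, 0.86 and 0.82). These r describe libraries that share genotype, scaling and depth.

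The islets held a different subset. Foxa2, Hnf4a, Foxa3 and Prox1 were present in every islet library, with mean TPM over 33 libraries of 96.2 ± 10.1, 19.3 ± 2.88, 16.1 ± 4.30 and 18.2 ± 6.67. Cebpa and Nr5a2 were low, at 2.30 ± 1.04 and 0.63 ± 0.22 TPM. Foxa1, Nr1i3 and Onecut1 were at the floor: their counts per islet library ran from 0 to 12, 0 to 53 and 0 to 37, with medians of 3, 3 and 2. Those of the same genes in liver ran from 635 to 1370, 287 to 4468 and 121 to 1695.

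Control livers were compared with the control islets of the Tfam experiment, a comparison in which 84.7% of all genes were called. Of the 9, 8 were called higher in liver, as were 38.9% of all genes, and Foxa2 was called higher in islets, as were 45.8%. The log2 differences were 8.61 for Cebpa (SE 0.24), 5.56 for Nr5a2 (SE 0.10), 5.03 for Hnf4a (SE 0.13), 2.71 for Foxa3 (SE 0.16) and 1.28 for Prox1 (SE 0.14). Foxa2 differed by -0.68 (SE 0.15, adjusted p 0.000514). On library totals, which moved the median of all genes from -0.19 to -0.84, Prox1 differed by 0.63 and Foxa2 by -1.33, and both were still called. The genes were chosen by name as hepatocyte factors, so these counts do not test that label. Nr1i3, Foxa1 and Onecut1 were at the floor in islets, where a lower level in liver could hardly be seen. With at least 10 counts in every library, 6 of the 9 were tested and 5 called higher in liver, as were 5193 of 12552 genes. Tissue cannot be told apart from experiment here, and livers were frozen while islets were cultured overnight.

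**Figure D4:**
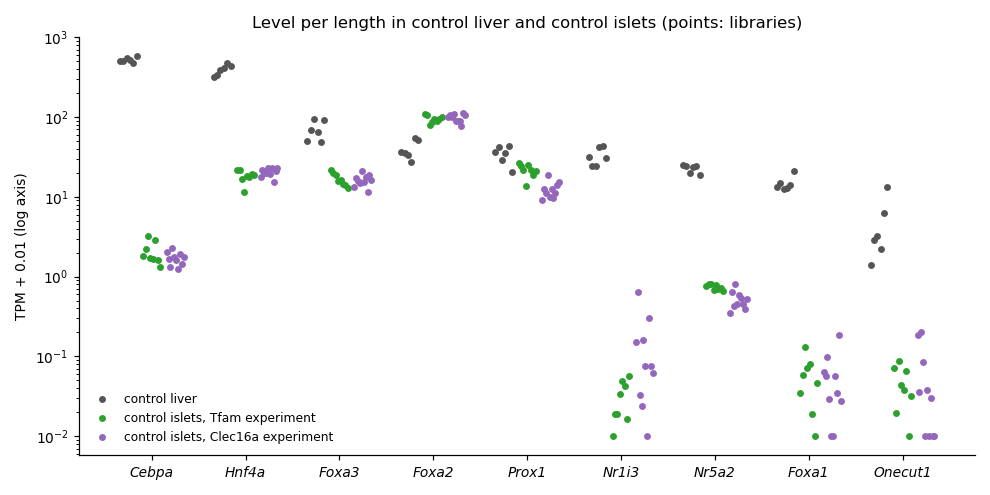
TPM + 0.01 on a log axis of each gene in 6 control livers, 8 control islet libraries of the Tfam experiment and 10 of the Clec16a experiment, 1 point per library. Foxa2 is the only gene of the 9 whose islet points lie above its liver points, and Nr1i3, Foxa1 and Onecut1 drop below 1 TPM in islets.

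In Tfam KO islets Foxa2 fell by a smaller amount than in liver. Its CPM ran from 87.9 to 124 in 8 control libraries (median 109) and from 78.4 to 92.6 in 6 KO libraries (median 85.9). The groups overlapped through 1 control. This was a log2 fold change of -0.32 (SE 0.07, adjusted p 0.00471), with sex in the fit. Foxa2 was the only gene of the 9 called, where 20.9% of all genes were called, 9.29% lower and 11.6% higher. No gene of the 9 had groups that did not overlap, against 2.66% of all genes wholly lower and 4.83% wholly higher. On library totals without TMM the value was -0.11 and not called (adjusted p 0.281), and that scaling moved the median of all genes to 0.20. In the same islets the summed beta cell markers ran from 105843 to 141557 CPM in KO and from 188601 to 295364 in control libraries, and all 9 of those markers were called lower. Their part in the result was not tested.

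No other factor was called in Tfam KO islets. Hnf4a ran from 32.8 to 47.5 CPM in controls (median 40.7) and from 28.3 to 40.5 in KO (median 34.8), a log2 fold change of -0.24 (SE 0.09, adjusted p 0.0729). It was called with the acinar marker level as a covariate (adjusted p 0.0276) and with DESeq2's Wald test (0.0478), and on library totals the value was -0.041 (0.808). Cebpa gave 0.56 (SE 0.22, adjusted p 0.0906) with 2.53 ± 0.81 CPM in control and 3.75 ± 1.16 in KO islets. It was called on library totals (0.77, adjusted p 0.0133) and with the acinar covariate (0.64, adjusted p 0.0361). Foxa3 and Prox1 each gave 0.01 (SE 0.07), and Nr5a2 -0.04 (SE 0.16).

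The effect of Tfam loss was then compared between the tissues in 1 fit, which does not allow for the unequal loss of Tfam RNA. Of all genes, 19.7% were called, 7.72% with the more negative value in liver and 12% with the more positive. Of the 9 genes, 4 were called more negative in liver: Cebpa (difference of log2 fold changes -1.94, SE 0.46, adjusted p 0.00524), Prox1 (-0.99, SE 0.25, adjusted p 0.00906), Foxa2 (-0.82, SE 0.23, adjusted p 0.0156) and Nr5a2 (-0.65, SE 0.22, adjusted p 0.0384). Hnf4a gave -0.26 (SE 0.24, adjusted p 0.506). Without Tfam KO liver replicate 2 only Cebpa was called (-1.47), with Prox1 at -0.87 (adjusted p 0.0504), Foxa2 at -0.74 (0.0724) and Nr5a2 at -0.44 (0.189). The Foxa2 call was also lost without Tfam KO liver replicate 1 (0.0621). That of Nr5a2 was lost without any of 9 single libraries, among them Tfam KO liver replicate 1, liver control replicates 1 and 2 and 5 islet libraries, and with no filter on low counts (0.059) or on library totals (0.0657).

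In islets labelled Clec KO, Foxa3 fell on both diets. On RFD its CPM was 17.5, 12.7, 17.4 and 14.5 in controls and 10.5, 8.78, 11.3 and 10.3 in the islets labelled KO. On HFD it ran from 13.3 to 19.7 in 6 controls (median 15.7) and was 10.1, 9.49, 8.36, 12.7 and 11.1 in those labelled KO. The groups did not overlap on either diet. Foxa3 had a log2 fold change of -0.60 (SE 0.15, adjusted p 0.0168) on RFD and -0.63 (SE 0.13, adjusted p 0.00409) on HFD. Foxa3 was the only gene of the 9 called. On RFD 7.52% of all genes were called, 3.54% lower and 3.99% higher, and on HFD 9.58%, 3.96% lower and 5.62% higher. Groups that did not overlap were found for 7.33% (lower) and 7.74% (higher) of all genes on RFD, and for 1.36% and 1.24% on HFD. On RFD the call was lost without KO replicate 2, control replicate 1 or control replicate 3 (adjusted p 0.0566, 0.0551 and 0.0642).

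Hnf4a and Foxa2 had negative values on both diets that were not called. Hnf4a gave -0.31 (SE 0.10, adjusted p 0.0731) on RFD, where DESeq2's Wald test called it (0.0494), and -0.23 (SE 0.09, adjusted p 0.120) on HFD, where 39.2 to 42.2 CPM in 5 libraries labelled KO lay just below 42.4 to 51.3 in 6 controls. Foxa2 gave -0.20 (SE 0.11, adjusted p 0.290) and -0.23 (SE 0.09, adjusted p 0.123). The summed endothelial markers ran from 465 to 541 CPM in the RFD islets labelled KO against 308 to 326 in controls, and from 321 to 587 against 298 to 365 on HFD. The summed stellate cell markers ran from 202 to 278 against 141 to 155 on RFD, and from 155 to 351 against 118 to 186 on HFD, where the groups overlapped. The summed beta cell markers ran from 197198 to 230398 against 211473 to 349241 on RFD, and from 139067 to 250583 against 233921 to 340428 on HFD, with 2 of 9 such genes called lower on each diet. The part of these cells in the Foxa3 result was not tested.

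**Figure D5:**
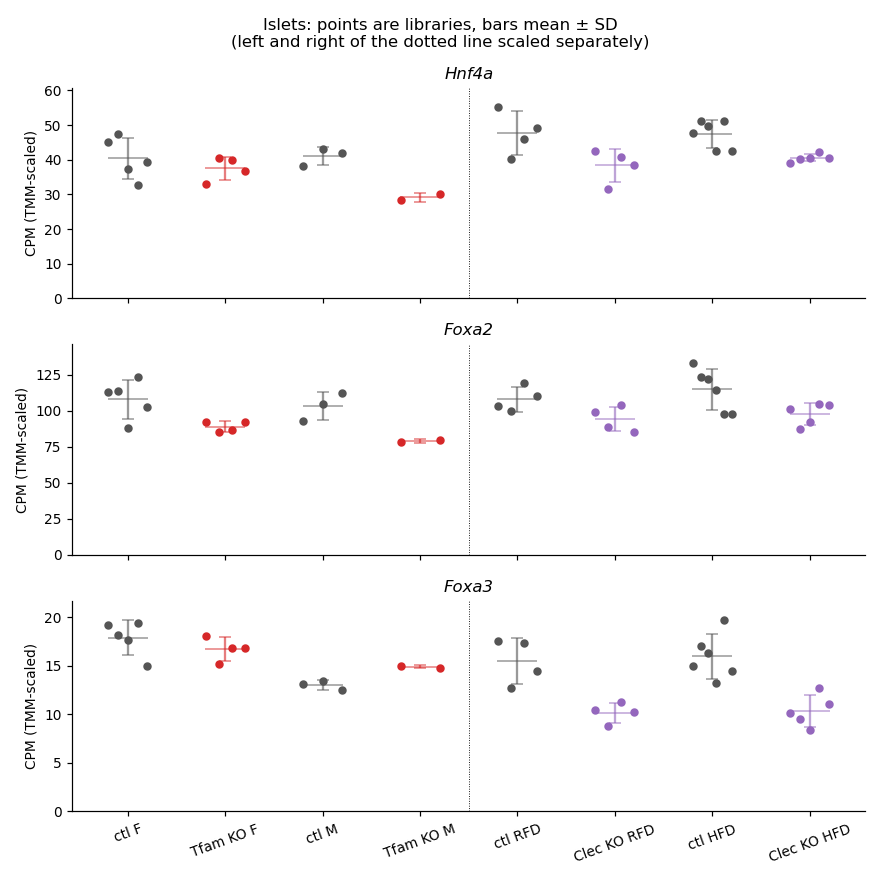
CPM of Hnf4a, Foxa2 and Foxa3 (vertical axes from 0) in 33 islet libraries, 1 point each, with the mean and SD of each group; the Tfam and Clec16a experiments were scaled separately. Foxa2 lies lower in Tfam KO islets (78.4 to 92.6) than in most controls, and Foxa3 lies lower in islets labelled Clec KO on both diets.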

How the data were processed

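RNA-seq of 13 livers and 33 islet samples was used. Each deposited file lists, per the file headers, a raw count, TPM and CPM for 55487 genes. Per the submitters' processing notes the build was GRCm38, and the tools named there include STAR 2.6.1b, RSEM 1.3.1, featureCounts and DESeq2, with no role given. The deposited counts are whole numbers and were tested as they stood. The authors' TPM was used for levels between genes and tissues. The authors' CPM equals the count over the library total. It was recomputed on TMM-scaled totals. Of the gene identifiers, 55141 are in GENCODE M21, which gave the gene positions.

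Each experiment was fitted in R 4.3.3 with edgeR 4.0.16 (filterByExpr, TMM, quasi-likelihood F-test, 2-sided, Benjamini-Hochberg, called at 0.05), with 1 mean per group and, in the Tfam islets, sex as a term. Each standard error was obtained by dividing the log2 fold change by the root of its F statistic. In all, 8 comparisons were made. Alternatives were the size factors and Wald test of DESeq2 1.42.0, other count filters, library totals, covariates (Xist, acinar markers, lane), a replicate block, fits of the compared groups only, and leaving out each library. On simulated data with 200 changed genes among 17024, the procedure recovered 52% of 2-fold and 90% of 4-fold changes in Tfam KO livers.

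The genes, the 8 gene lists and the 9 marker lists were chosen with earlier results of these data known. The genes named are the 9, the targeted genes, Xist, up to 4 genes per list, those with the lowest adjusted p, the 3 genes most like each of the 9 (those of Hnf4a are not reported here), and overlapping genes.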

Additional observations from a re-analysis of the deposited data

Results flagged for a closer look

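In 54 groups of 4 to 10 libraries, the highest or lowest value was tested for a gap to the others that is large for the group's range. By chance this marks about 1 group in 20, and 3 were marked. Control liver replicate 6 held the highest Onecut1 level, 27.1 CPM against 2.76 to 11.4 in the other controls, and the highest Foxa1 level, 34.0 CPM against 19.3 to 23.4. Mfn DKO replicate 3 held 172 CPM of Prox1, against 91.0 to 102 in the other 3 livers of its group.

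The effect of Tfam loss was called different between liver and islets for 4 genes by a test of the difference itself. Without Tfam KO liver replicate 2, Cebpa alone was called. The difference of log2 fold changes, liver minus islet, was -1.94 for Cebpa, -0.99 for Prox1, -0.82 for Foxa2 and -0.65 for Nr5a2. Cebpa had opposite signs in the tissues, -1.25 in liver and 0.56 in islets, the latter not called.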

How the results depend on the processing

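Residual profiles of same-numbered livers correlated at a median of 0.0873 over 10 pairs (-0.343 to 0.350), against -0.045 for livers of other numbers. Those correlating best with their own number were 4 of 13 livers, 5 of 14 Tfam islet and 1 of 19 Clec16a islet libraries. With so few pairs, this does not settle whether replicate numbers pair the libraries. With a replicate block there were 169 calls, against 1681, in Mfn DKO livers (0 of the 9 genes lower), 395 against 4992 in Tfam KO livers (1 of the 9), 6 against 50 between the knockouts and 975 against 1653 in HFD islets; it turned Nr5a2 to -0.0070 and Onecut1 to 0.47 in Mfn DKO. Library totals without TMM moved the median of all genes to 0.21 (Mfn DKO), 0.46 (Tfam KO), 0.25 (Tfam KO against Mfn DKO), 0.20 (Tfam islets), 0.12 (HFD islets), 0.28 (tissue difference) and -0.84 (liver against islet). With that scaling, calls numbered 8151 in Tfam KO livers, 1226 between knockouts and 6825 in Tfam islets, where 0 of the 9 were then lower and 2 higher, Hnf4a in Mfn DKO turned to 0.049, and 4 of the 9 were lower in Tfam KO livers. The share of calls that were higher went from 53.0 to 82.2% in Mfn DKO, 61.6 to 88.9% in Tfam KO, 36.0 to 93.0% between knockouts, 55.5 to 91.0% in Tfam islets, 58.7 to 83.5% in HFD islets, 60.8 to 79.1% for the tissue difference and 46.0 to 31.5% between tissues. Fitting only the compared groups gave 4338 calls with 4 of the 9 lower in Mfn DKO, 3228 with 3 in Tfam KO, and 7 between knockouts. DESeq2's Wald test gave 2870 calls in Mfn DKO and 1087 between knockouts, 1 of the 9 lower there, 2 lower in Tfam islets and 2 lower in RFD islets. The acinar covariate gave 2 lower and 1 higher in Tfam islets. A minimum of 10 counts in every library left 27 calls between knockouts, and 10718 between tissues with 5 of the 9 higher, since fewer genes were tested.

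Leaving out single libraries gave 686 to 1444 calls (0 to 2 of the 9 lower) in Mfn DKO, 2504 to 7330 (3 to 6) in Tfam KO, 24 to 4204 (0 to 3) between knockouts, 3096 to 4995 in Tfam islets (1 to 2 lower, 0 to 1 higher), 523 to 1224 in RFD islets (0 to 2), 786 to 3369 in HFD islets (1 throughout) and 1855 to 6609 for the tissue difference (1 to 5). Onecut1 ran from -0.66 to 0.38 in Mfn DKO and from -1.11 to 1.01 in Tfam KO, and the tissue difference of Hnf4a from -0.54 to 0.047. The cause of these changes was not tested. In the check of the procedure for Tfam KO against control livers, 52% of 2-fold changes were recovered, so a gene not called there may still differ.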
